A study of Homo sapiens with 4 samples.

Results

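The 26S proteasome takes ubiquitin-tagged proteins apart. Its core particle is a barrel of 2 outer rings of alpha subunits (PSMA genes) and 2 inner rings of beta subunits (PSMB genes), of which PSMB5, PSMB6 and PSMB7 carry the cutting sites. A regulatory particle docks on the barrel: its base unfolds the substrate with ATPases (PSMC genes) and holds ubiquitin receptors, and its lid removes the ubiquitin chain. Other caps (PSME genes) can replace the regulatory particle, PSMF1 (PI31) is an inhibitor of the isolated core in vitro, and chaperones (PSMG genes, PSMD5, PSMD9 and PSMD10) help to assemble the particle. Cells exposed to interferon, and blood cells, use PSMB8, PSMB9 and PSMB10 in place of the 3 constitutive cutting subunits, which makes the immunoproteasome that supplies peptides for antigen presentation.

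The genes of this machine were chosen by symbol: PSM, a letter from A to G, and a number, with nothing after it except a letter or IP. Of 52402 symbols in the count tables, 52 matched, PSMA3P, PSMA7P and PSMD12P were left out as pseudogenes, and 49 members remained. They comprised 14 constitutive core subunits, 3 immunoproteasome subunits, 9 base subunits, 8 lid subunits, 4 activators, 1 inhibitor, 7 assembly chaperones, the tissue-restricted PSMA8 and PSMB11, and PSMC3IP, a recombination protein that shares only the name. The rule itself uses the symbols and no measured value.

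RNA-seq counts came from 4 cultures of human ovarian cancer cell lines with 1 library each. The SKOV3 KO and OVCAR3 KO cultures carried a CRISPR-Cas9 knockout of the env (envelope) gene of HERV-K119, an endogenous retrovirus, and the SKOV3 mock and OVCAR3 mock cultures were their controls. The protocol gives hygromycin at 100 μg/mL for 2 days, started 18 h after transfection, for knockout and mock samples alike. The labels do not say whether a knockout culture was 1 clone or a pool, and the RNA of the targeted provirus was not analysed here, so the knockout itself was not checked.

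Total counts were 15145483 in SKOV3 KO, 22057693 in SKOV3 mock, 15825915 in OVCAR3 KO and 16298490 in OVCAR3 mock. Mitochondrially encoded rows held 21.9% of the counts in OVCAR3 KO, against 5.16% to 5.93% in the other 3 libraries. All 4 libraries expressed the 6 epithelial markers, with a summed level of 5170 CPM (counts scaled to library size, here with TMM factors) in SKOV3 KO, 5570 in SKOV3 mock, 2090 in OVCAR3 KO and 7620 in OVCAR3 mock. The 8 blood cell markers summed to between 3.81 and 10.5 CPM, with PTPRC and CD3E at 0 in every library. The 5 line identity markers gave a mixed picture. CDKN2A, which SKOV3 lacks, had 91.2 CPM in SKOV3 KO and 90.6 CPM in SKOV3 mock, against what is known of that line. ERBB2, amplified in SKOV3, had 55.7 and 58.5 CPM there, and 32.0 CPM in OVCAR3 KO and 73.3 CPM in OVCAR3 mock. MUC16 had 1 count in each SKOV3 library, 91 in OVCAR3 KO and 45 in OVCAR3 mock. PAX8 had between 3.33 and 8.83 CPM, and WT1 had 0 counts in every library. SKOV3 and OVCAR3 below therefore name labels and not checked identities.

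Of the 49 members, 43 had counts, and all 43 passed the filter of 1 CPM in every comparison. The other 6 split into those that stand in several rows of the tables and those in 1 row. PSMB8 and PSMB9 (8 rows each, for alternative copies of the MHC region) and PSMB3 and PSMC4 (2 rows each) were listed at 0 in all 4 libraries. PSMB3 and PSMC4 are subunits of every standard 26S proteasome, and across coding genes 48.0% of the 1019 symbols in several rows were at 0 in all libraries, against 13.6% of the 18497 symbols in 1 row. The zeros of PSMB8 and PSMB9 therefore give no level of these genes, and no fold is given for any of the 4. PSMA8, a testis subunit, and PSMB11, a thymus subunit, had 1 row each and 0 counts, which allows up to 0.198 unscaled CPM in SKOV3 KO, 0.136 in SKOV3 mock, 0.190 in OVCAR3 KO and 0.184 in OVCAR3 mock.

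The promoters of 4 members are shown, those on which the comparison of OVCAR3 KO with OVCAR3 mock turns, which are the highest ratio (PSMA4) and the 3 lowest (PSMD2, PSMF1, PSMD3). Each line gives the 250 bases before a RefSeq transcription start (GRCh38.p14, plus strand, 5′ to 3′), at chr15:78540536-78540785 for PSMA4, chr3:184298991-184299240 for PSMD2, chr17:39980557-39980806 for PSMD3 and chr20:1113013-1113262 for PSMF1. Where RefSeq lists several starts (3 for PSMA4, 2 each for PSMD2 and PSMF1), the one with the most marked motifs is shown, otherwise the first. Capitals mark TGACNNNGC, the core of the element bound by NFE2L1 and NFE2L2 with small MAF proteins, and CCAAT, the box bound by NF-Y, on either strand.
PSMA4: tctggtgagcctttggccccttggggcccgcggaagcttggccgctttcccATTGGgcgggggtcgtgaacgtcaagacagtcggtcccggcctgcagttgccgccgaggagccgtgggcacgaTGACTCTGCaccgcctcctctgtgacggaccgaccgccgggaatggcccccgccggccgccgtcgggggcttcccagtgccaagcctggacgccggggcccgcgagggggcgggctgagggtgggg
PSMD2: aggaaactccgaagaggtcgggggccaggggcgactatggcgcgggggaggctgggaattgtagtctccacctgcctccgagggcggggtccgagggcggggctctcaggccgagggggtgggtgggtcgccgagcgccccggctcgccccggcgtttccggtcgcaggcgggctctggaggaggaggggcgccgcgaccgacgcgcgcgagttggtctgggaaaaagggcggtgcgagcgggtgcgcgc
PSMD3: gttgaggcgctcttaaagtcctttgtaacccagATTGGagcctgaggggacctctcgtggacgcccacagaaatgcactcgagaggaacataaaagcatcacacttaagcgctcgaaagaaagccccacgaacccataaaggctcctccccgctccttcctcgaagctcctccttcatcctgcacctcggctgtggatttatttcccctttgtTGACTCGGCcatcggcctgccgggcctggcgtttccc
PSMF1: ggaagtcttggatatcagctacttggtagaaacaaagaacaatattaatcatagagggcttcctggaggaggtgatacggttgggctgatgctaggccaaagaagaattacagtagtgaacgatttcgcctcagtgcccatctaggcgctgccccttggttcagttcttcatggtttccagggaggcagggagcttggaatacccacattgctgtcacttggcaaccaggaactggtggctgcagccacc

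PSMA4 and PSMD3 both held 1 TGACNNNGC and 1 CCAAT in these windows, and PSMD2 and PSMF1 held neither. RefSeq promoters were matched for 43 of the 49 members, and not for PSMA7, PSMB1, PSMB6, PSMB7, PSMD4 and PSMG3. TGACNNNGC was present in a promoter of 13 of these 43 members (30.2%), and in 10.9% of all 35116 promoters of the same length; CCAAT was present for 20 of 43 members (46.5%) and in 32.0% of all promoters. A member can have several listed promoters, 53 for the 43 members, and 13 of the 53 held TGACNNNGC and 21 held CCAAT. These matches describe letters in a window and not bound sites.

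Per length of transcript, the parts of the particle stood in the same order in all 4 libraries, with the core above the base and lid and these above the assembly chaperones. The 13 measured constitutive core subunits had median levels of 176 CPM per kilobase in SKOV3 KO, 180 in SKOV3 mock, 151 in OVCAR3 KO and 114 in OVCAR3 mock. The 16 measured base and lid subunits had medians of 108, 110, 68.7 and 76.6 CPM per kilobase in the same order of libraries. Assembly chaperones were lower, with medians of 31.4, 33.4, 26.2 and 21.3 CPM per kilobase. PSMA7, an alpha ring subunit, had the highest level of the core, base and lid per kilobase in SKOV3 KO (388), SKOV3 mock (386) and OVCAR3 mock (254), whereas PSMB1, a structural beta subunit, was highest in OVCAR3 KO at 316. These levels depend on the transcript chosen for each gene; PSMA5, with a long transcript of 3729 bases, had the lowest value of the core, base and lid in both SKOV3 libraries.

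**Figure D1:**
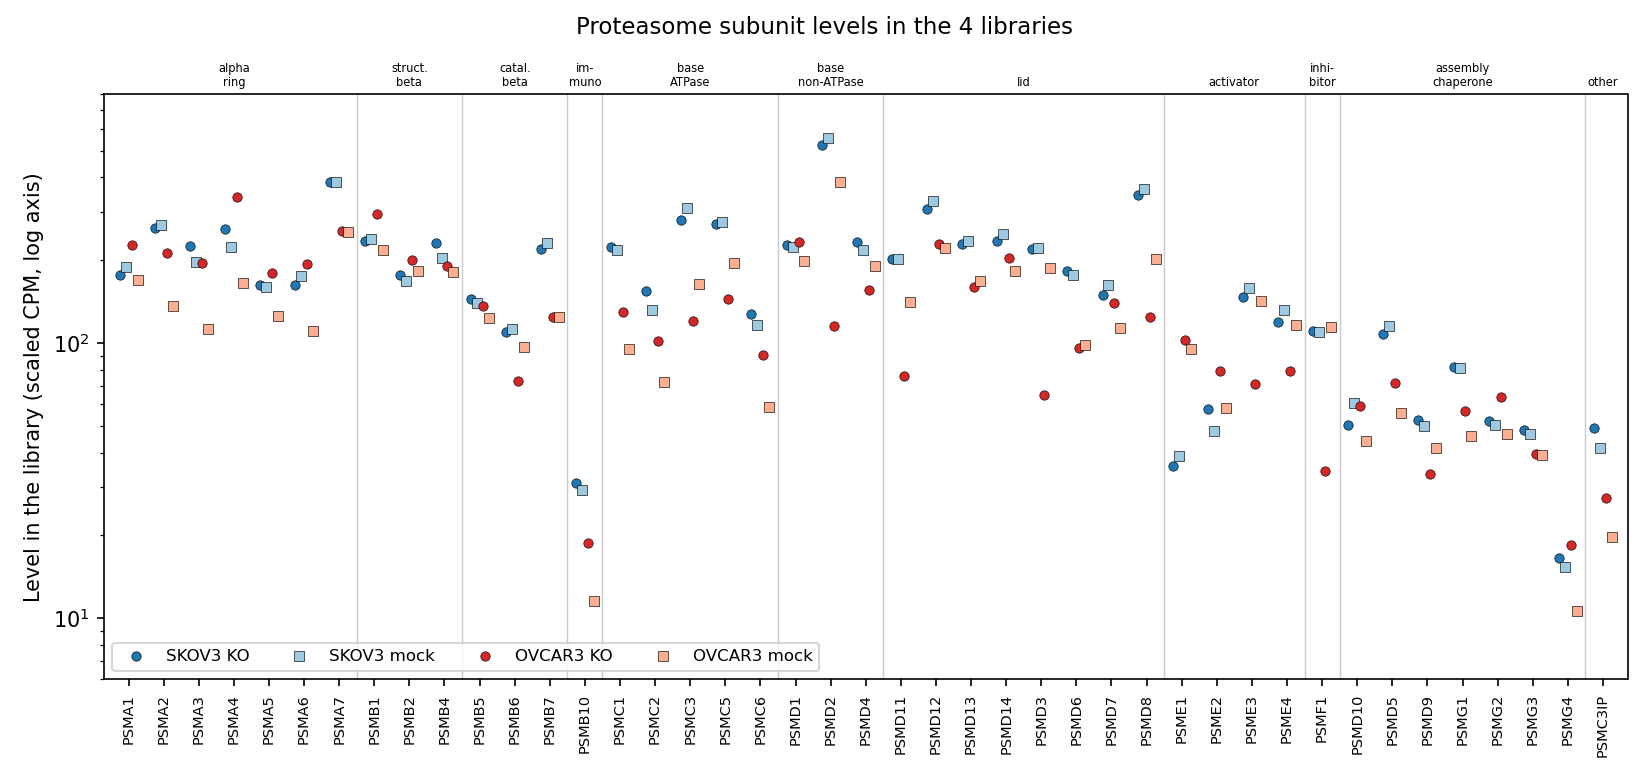
Level of each of the 43 measured members in scaled CPM on a log axis, with 1 point per library and members grouped by their place in the particle. The SKOV3 KO and SKOV3 mock points lie close together throughout, and OVCAR3 KO lies far below OVCAR3 mock for PSMD2 (115 against 386 CPM), PSMD3 and PSMF1 and above it for PSMA4.

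In SKOV3 the proteasome genes differed little between the knockout and the mock library. No member of 43 was past 2-fold in SKOV3 KO over SKOV3 mock, where 1.57% of all 13524 measured genes were (0.806% higher and 0.769% lower) and 0.0132% of the 7572 coding genes with at least 20 CPM. Ratios are log2 values with a prior count of 2, and brackets give exact 95% intervals of the count ratio, which cover counting error only. A line has a single library of each kind, so no ratio within it can be checked against replicates or given a p-value. The median member ratio was 0.006 and the members ran from -0.27 to 0.26, with an SD of 0.118, against an SD of 0.175 over the coding genes with at least 20 CPM.

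**Figure D2:**
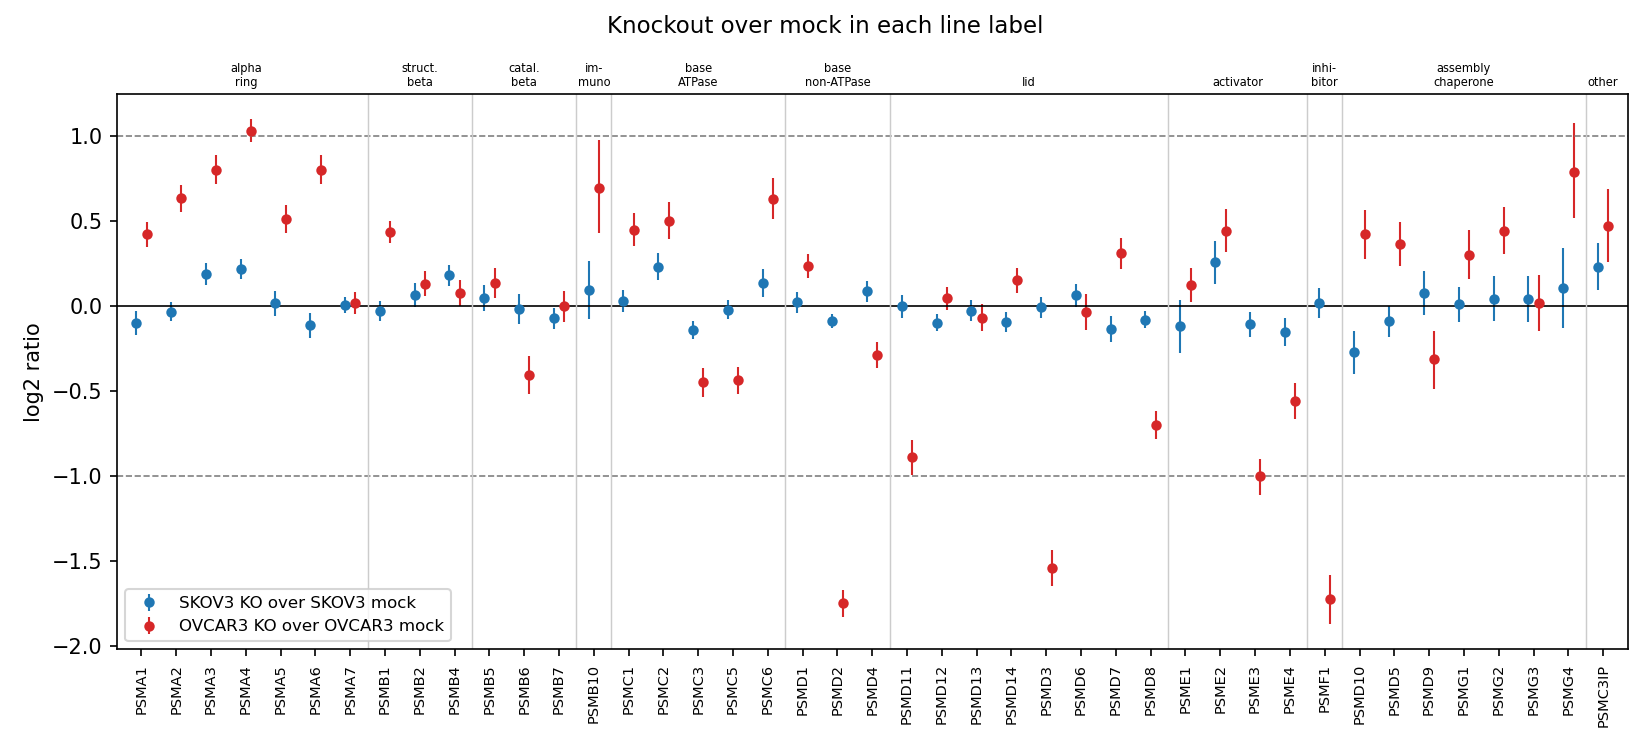
log2 ratio of knockout over mock for each measured member, with exact 95% counting intervals as bars, SKOV3 in blue and OVCAR3 in red; dashed lines mark 2-fold. All SKOV3 ratios lie between -0.27 and 0.26, while in OVCAR3 the alpha ring lies at or above 0 before any GC trend is removed and PSMD2, PSMD3, PSMF1 and PSME3 lie at or below the lower line.

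Within the core, PSMA4 had the highest alpha ring ratio in SKOV3, at 259 CPM in SKOV3 KO and 223 CPM in SKOV3 mock (0.22, 0.16 to 0.27). PSMA6 had the lowest, at 162 and 175 CPM (-0.11, -0.19 to -0.04). Of the structural beta subunits, PSMB4 was the highest, at 231 CPM in SKOV3 KO and 204 CPM in SKOV3 mock (0.18, 0.12 to 0.24), and PSMB1 the lowest, at 234 and 239 CPM (-0.03, -0.09 to 0.03). The 3 constitutive cutting subunits were close to equal. PSMB5, which cuts after hydrophobic residues, had 145 CPM in SKOV3 KO and 140 CPM in SKOV3 mock; PSMB6, which cuts after acidic residues, had 110 and 112 CPM; and PSMB7, which cuts after basic residues, had 219 and 230 CPM.

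The regulatory particle was as flat in SKOV3. Among base ATPases PSMC2 was the highest, at 155 CPM in SKOV3 KO and 132 CPM in SKOV3 mock (0.23, 0.16 to 0.31), and PSMC3 the lowest, at 281 and 310 CPM (-0.14, -0.20 to -0.09). PSMD4, a ubiquitin receptor of the base, had 232 CPM in SKOV3 KO and 218 CPM in SKOV3 mock, and PSMD2, a scaffold of the base, had 523 and 557 CPM. Of 8 lid subunits, 7 had ratios below 0, with a median of -0.05 and 4 intervals clear of 0. PSMD7, which carries the partner domain of the lid's deubiquitinase, was the lowest at 149 CPM in SKOV3 KO and 163 CPM in SKOV3 mock (-0.14, -0.21 to -0.06), and PSMD6 the highest at 183 and 176 CPM.

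Beyond the 26S particle, the activators and chaperones held both ends of the SKOV3 range. PSME2, a subunit of the interferon-inducible PA28 cap, had 57.4 CPM in SKOV3 KO and 48.1 CPM in SKOV3 mock (0.26, 0.13 to 0.39). PSMD10 (gankyrin), a base chaperone, had 50.2 CPM in SKOV3 KO and 60.6 CPM in SKOV3 mock (-0.27, -0.40 to -0.15). PSMF1 had 111 and 110 CPM, PSME3, the nuclear PA28 gamma cap, 147 and 159 CPM, and PSME4, the PA200 cap, 119 and 132 CPM. PSMG4 was the highest chaperone at 16.6 CPM in SKOV3 KO and 15.4 CPM in SKOV3 mock, with an interval of -0.13 to 0.34 that spans 0. PSMC3IP had 49.0 and 41.7 CPM (0.23, 0.09 to 0.37).

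The pair labelled OVCAR3 looked different. In OVCAR3 KO over OVCAR3 mock, 1 of 43 members was at least 2-fold higher (PSMA4) and 4 were at least 2-fold lower (PSMD2, PSMF1, PSMD3 and PSME3). That background was large: 22.5% of all 15560 measured genes were past 2-fold higher and 15.3% lower, 37.8% in all, and among the 8184 coding genes with at least 20 CPM 6.54% were higher and 21.8% lower, 28.3% in all. The 5 members past 2-fold are thus a smaller share of the 43 than the share of genes past it in either background. The median member ratio was 0.136, against 0.156 over all genes and -0.142 over the coding genes with at least 20 CPM. OVCAR3 KO was also the library with the high mitochondrial share, its 6 epithelial markers were all lower than in OVCAR3 mock and 5 were past 2-fold (KRT19 had 401 CPM in OVCAR3 KO and 2380 CPM in OVCAR3 mock), and the part of these differences in the member ratios was not tested. In bulk RNA, fewer cells of a kind and less RNA per cell cannot be told apart.

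The core particle was mostly higher in OVCAR3 KO, a direction lost once the ratios were corrected for GC content and length. Of 13 measured constitutive core subunits, 11 had ratios above 0, with a median of 0.42, and all 7 alpha subunits did, with a median of 0.63. PSMA4 had 338 CPM in OVCAR3 KO and 165 CPM in OVCAR3 mock (1.03, 0.96 to 1.10). PSMA3 had 196 CPM in OVCAR3 KO and 112 CPM in OVCAR3 mock (0.80), and PSMA6 had 194 and 111 CPM (0.80); the antisense RNA PSMA3-AS1 had 523 counts in OVCAR3 KO and 272 in OVCAR3 mock, and without a stated strand setting its reads and those of PSMA3 cannot be told apart. PSMA7 was the lowest of the ring and nearly equal, at 256 CPM in OVCAR3 KO and 253 CPM in OVCAR3 mock.

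The measured beta subunits had ratios nearer to 0 than most alpha subunits. PSMB1 had 294 CPM in OVCAR3 KO and 217 CPM in OVCAR3 mock (0.44, 0.37 to 0.50), and PSMB4 had 191 and 181 CPM (0.08). Of the cutting subunits, PSMB5 had 136 CPM in OVCAR3 KO and 123 CPM in OVCAR3 mock (0.14, 0.05 to 0.23), PSMB6 had 73.0 and 96.8 CPM (-0.41, -0.52 to -0.29), and PSMB7 had 124 CPM in both. The 3 cutting subunits of the barrel thus lay on different sides of 0, beyond counting error for PSMB5 and PSMB6.

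The regulatory particle split. Of its 16 measured subunits 7 had ratios above 0 and 9 below, with a median of -0.05. PSMD2, which holds the ubiquitin-domain shuttles at the base, had 115 CPM in OVCAR3 KO and 386 CPM in OVCAR3 mock (-1.75, -1.83 to -1.67). PSMD3, a lid scaffold, had 64.5 CPM in OVCAR3 KO and 188 CPM in OVCAR3 mock (-1.54, -1.65 to -1.44). Short of 2-fold, the lid subunits PSMD11 (76.0 CPM in OVCAR3 KO, 141 CPM in OVCAR3 mock) and PSMD8 (124 and 202 CPM) had ratios of -0.89 and -0.70.

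Other subunits of the same particle lay on the opposite side. As measured, the base ATPase PSMC6 had 90.7 CPM in OVCAR3 KO and 58.5 CPM in OVCAR3 mock (0.63, 0.51 to 0.75), whereas its ring neighbour PSMC3 had 120 and 164 CPM (-0.45, -0.54 to -0.36). PSMD1, the other large scaffold of the base, had 233 CPM in OVCAR3 KO and 198 CPM in OVCAR3 mock (0.24), and PSMD7 was the highest lid subunit at 140 and 113 CPM (0.31, 0.22 to 0.40). PSMD14, the lid's deubiquitinase, had 204 CPM in OVCAR3 KO and 183 CPM in OVCAR3 mock (0.15, 0.08 to 0.22). Corrected for GC content and length, PSMC6 had -0.20 and PSMC3 -0.24, on the same side, PSMD14 had -0.11, PSMD7 0.01 and PSMD1 0.06. The SD of the ratios over the 16 subunits was 0.698 in the OVCAR3 pair and 0.102 in the SKOV3 pair.

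Counts of the core rather than of the regulatory particle made up more of the total in OVCAR3 KO than elsewhere. Of all counts in the core, base and lid genes, the core held 41.27% in SKOV3 KO and 40.27% in SKOV3 mock, and 54.53% in OVCAR3 KO and 42.77% in OVCAR3 mock. These shares are taken within a library and do not depend on scaling between libraries, but they are not corrected for GC content and length. The exact 95% intervals were 54.16% to 54.89% in OVCAR3 KO and 42.42% to 43.12% in OVCAR3 mock, and cover counting error only. As measured, the median ratios in the OVCAR3 pair were 0.42 for the core and -0.05 for the base and lid. With the GC and length trend removed they were -0.10 and -0.26, so they lay closer together. PSMD2 alone accounted for 1691 of 32178 base and lid counts in OVCAR3 KO and 6344 of 43932 in OVCAR3 mock.

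**Figure D3:**
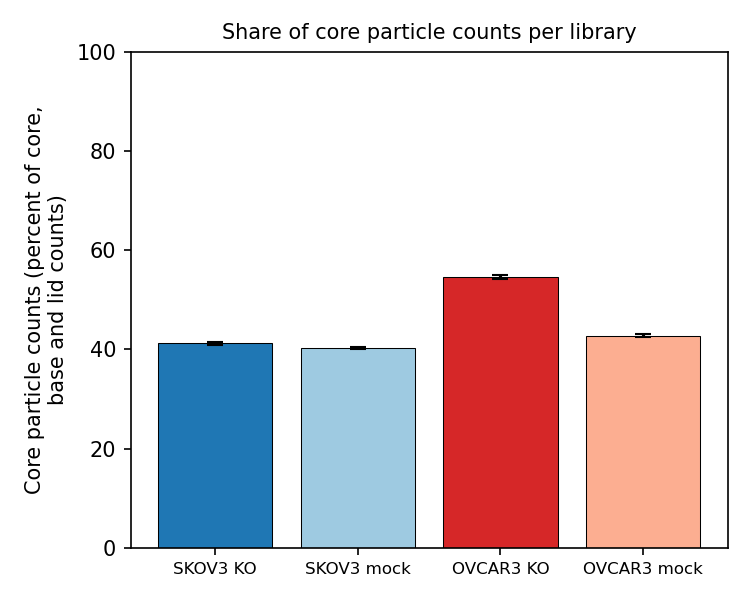
Core particle counts as a percentage of core, base and lid counts in each library, with exact 95% counting intervals. OVCAR3 KO stands at 54.53% and OVCAR3 mock at 42.77%, and SKOV3 KO at 41.27% and SKOV3 mock at 40.27%. The shares are not corrected for GC content or length.

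Among the alternative caps, the 2 PA28 subunits lay above 0 and the 2 other caps below it in OVCAR3 as measured, and PSME1 had -0.05 when corrected for GC content and length. PSME1 had 103 CPM in OVCAR3 KO and 94.8 CPM in OVCAR3 mock (0.12, 0.02 to 0.23), and PSME2 had 79.0 and 58.1 CPM (0.44, 0.32 to 0.57). PSME3 had 70.9 CPM in OVCAR3 KO and 142 CPM in OVCAR3 mock (interval -1.11 to -0.90), just at the 2-fold limit, and PSME4 had 78.9 and 116 CPM (-0.56, -0.67 to -0.46). The inhibitor PSMF1 had 34.3 CPM in OVCAR3 KO and 114 CPM in OVCAR3 mock (-1.73, -1.87 to -1.59), while its level in SKOV3 KO and SKOV3 mock was close to that of OVCAR3 mock.

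Assembly chaperones were mostly on the higher side, with 6 of 7 ratios above 0 and a median of 0.36, against a median of 0.13 when corrected for GC content and length, where PSMD5 (-0.01) and PSMD10 (-0.21) had ratios below 0 as PSMD9 did. PSMG4 had the highest, at 18.4 CPM in OVCAR3 KO and 10.6 CPM in OVCAR3 mock (0.79, 0.52 to 1.08), and PSMD9 the lowest, at 33.3 and 41.4 CPM (-0.31, -0.49 to -0.15). PSMD10 had 59.1 CPM in OVCAR3 KO and 44.1 CPM in OVCAR3 mock (0.42, 0.28 to 0.57), opposite to its SKOV3 ratio. PSMC3IP had 27.4 and 19.7 CPM (0.47, 0.26 to 0.69).

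The OVCAR3 ratios ran with the base composition of the transcripts. Over the 43 members Spearman's rho of the ratio with transcript GC content was -0.44, and over 12733 coding genes it was -0.418; the corresponding values in SKOV3 were 0.08 and 0.128. The points share the same 2 libraries, and genes are not independent replicates. PSMA4 has 39.9% GC, whereas PSMD2 has 54.3% and PSMD3 58.6%, but PSMF1 has 48.3%, near the middle of the members. When a smooth trend on GC content and length, fitted over all coding genes, was taken off, the median of the alpha ring in OVCAR3 KO over OVCAR3 mock was -0.10 in place of 0.63 and that of the core -0.10 in place of 0.42. Corrected ratios are not centred on 0 and had a median of -0.13 over the coding genes. The ratio of PSMA4 became 0.13. Those of PSMF1 (-1.62), PSMD2 (-1.34), PSME3 (-1.25) and PSMD3 (-1.12) stayed past 2-fold, and PSMB10 had 0.90 and PSME2 0.65.

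**Figure D4:**
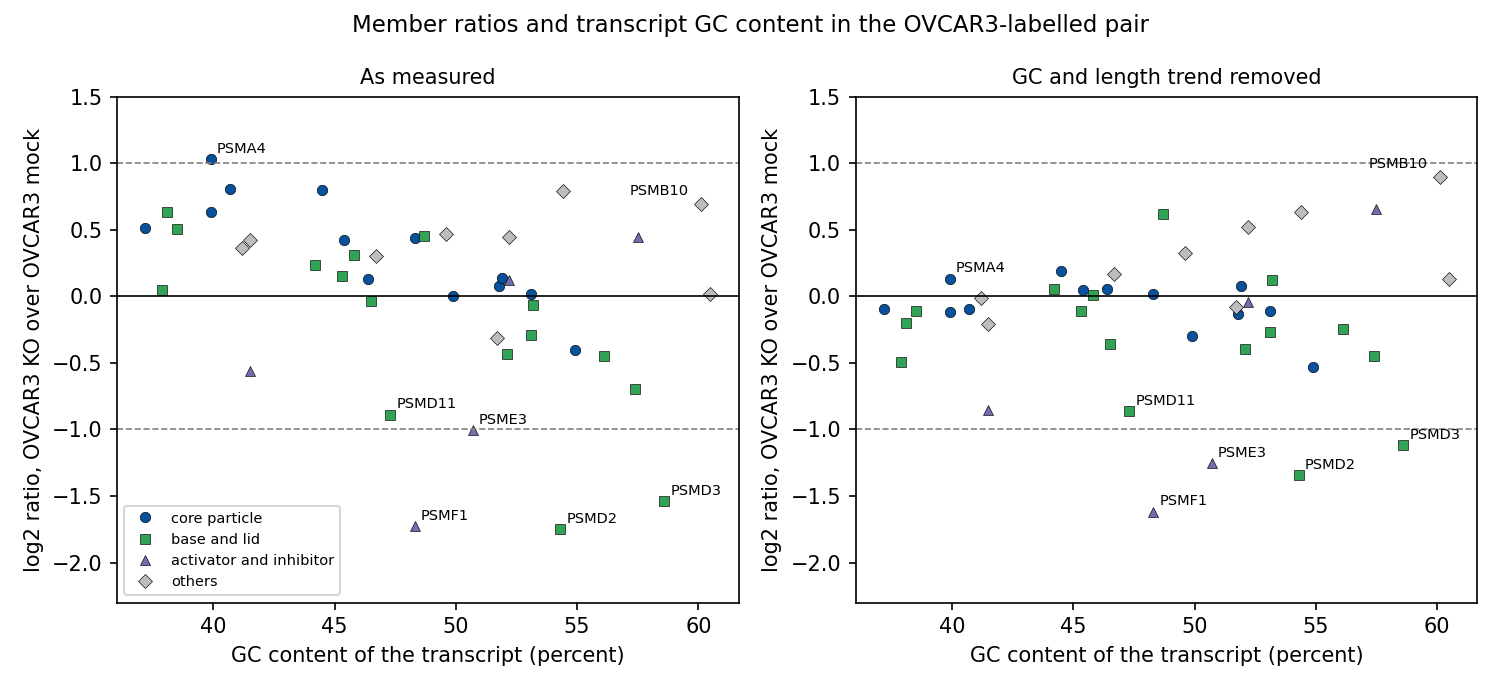
log2 ratio of OVCAR3 KO over OVCAR3 mock against transcript GC content for the 43 measured members, as measured (left) and with the trend on GC content and length over coding genes removed (right). The core subunits at low GC content, PSMA4 among them, lie above 0 on the left and near 0 on the right, while PSMF1, PSMD2, PSMD3 and PSME3 lie beyond the lower 2-fold line on both sides.

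Members with and without TGACNNNGC in a promoter had similar spreads of ratios in OVCAR3 KO over OVCAR3 mock. The 11 measured members with it had a median of 0.12 and ran from -1.54 (PSMD3) to 1.03 (PSMA4), and the 26 measured members without it had a median of 0.27 and ran from -1.75 (PSMD2) to 0.80 (PSMA3). In SKOV3 KO over SKOV3 mock the medians were -0.007 and 0.018. PSMA4 and PSMD3, which each carry both motifs in the sequences printed above, stood toward opposite ends of the OVCAR3 range as measured. The printed promoters were chosen for the ends of that range, so this placing follows from the choice and says nothing about the motifs. Corrected for GC content and length, PSMA4 had 0.13, inside the range, and PSMD3 had -1.12.

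The transcription factor that drives proteasome genes when the proteasome is blocked was lower in OVCAR3 KO, as were several genes around it. All 7 regulators had ratios below 0, with a median of -1.06, and 4 were past 2-fold lower (NFE2L1, MAFF, MAFG and MAFK), where 15.3% of all genes and 21.8% of the coding genes with at least 20 CPM were. NFE2L1, that factor, had 83.8 CPM in OVCAR3 KO and 262 CPM in OVCAR3 mock (-1.64, -1.74 to -1.55), and its dimer partner MAFF had 13.4 and 58.0 CPM (interval -2.34 to -1.89). NGLY1 and NFE2L2 had the highest ratios of the list, at -0.05 (-0.23 to 0.14, which spans 0) and -0.50. Corrected for GC content and length, MAFG (-0.82) and MAFK (-0.78) were short of 2-fold and DDI2 (-1.18) was past it. In SKOV3 none of the 7 was past 2-fold, NFE2L1 had 141 CPM in SKOV3 KO and 143 CPM in SKOV3 mock, and MAFF had 31.3 and 36.1 CPM.

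Partners of the particle lay on both sides of 0. Of 13, 1 was past 2-fold higher in OVCAR3 KO and 3 lower, a share near the background of 28.3% of the coding genes with at least 20 CPM and 37.8% of all genes past 2-fold. SEM1, a small lid subunit without a PSM name, had 151 CPM in OVCAR3 KO and 63.5 CPM in OVCAR3 mock (1.25), and POMP, which matures the core, had 210 and 115 CPM (0.87). AKIRIN2, which guides proteasomes into the nucleus, had 17.9 CPM in OVCAR3 KO and 92.8 CPM in OVCAR3 mock (-2.37), and ADRM1, a ubiquitin receptor that docks on PSMD1, had 51.5 and 158 CPM (-1.61). With the GC and length trend removed, SEM1 had 0.15, ADRM1 -1.30 and POMP -0.29. In SKOV3 the partners ran from -0.25 (PAAF1) to 0.24 (FBXO7).

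The genes that make ubiquitin and bring substrates were lower more often than higher. Of 15, 6 were past 2-fold lower in OVCAR3 KO, where 15.3% of all genes and 21.8% of the coding genes with at least 20 CPM were, and none was past 2-fold higher. UBA1, the main ubiquitin-activating enzyme, had 111 CPM in OVCAR3 KO and 526 CPM in OVCAR3 mock (-2.24), and UBQLN2, a shuttle, had 8.42 and 39.1 CPM (-2.20). RPS27A and UBA6 had the highest ratios, at 0.86 and 0.37. The 15 genes in SKOV3 ran from -0.29 (RAD23B) to 0.08 (UFD1L). These lists were chosen with results of these libraries known, so their direction is not independent evidence.

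The immunoproteasome could be read only from PSMB10, since PSMB8 and PSMB9 were listed at 0. PSMB10 had 31.1 CPM in SKOV3 KO and 29.2 CPM in SKOV3 mock (0.09, -0.08 to 0.26), and 18.8 CPM in OVCAR3 KO and 11.6 CPM in OVCAR3 mock (0.70, 0.43 to 0.98). Set against PSMB7, whose place it takes, PSMB10 held 12.5% (exact 95% interval 11.5 to 13.5) of the pair's counts in SKOV3 KO and 11.3% (10.5 to 12.1) in SKOV3 mock. In OVCAR3 KO it held 13.2% (11.8 to 14.7) and in OVCAR3 mock 8.54% (7.41 to 9.77). These intervals did not overlap, but they cover counting error only. PSMB7 had 124 CPM in both OVCAR3 libraries, so as measured the difference of the share lay in PSMB10. Corrected for GC content and length, the ratios of OVCAR3 KO over OVCAR3 mock were 0.90 for PSMB10 and -0.30 for PSMB7, so both genes then differed.

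Over all 6 cutting genes the share of immunoproteasome counts, all from PSMB10, was 6.17% in SKOV3 KO and 5.71% in SKOV3 mock, and 5.35% in OVCAR3 KO and 3.25% in OVCAR3 mock; with PSMB8 and PSMB9 unread these are lower bounds of the share. The split of counts between the PA28 genes PSME1 and PSME2 differed between libraries as well. It is a share of RNA counts, not corrected for GC content or length, and the cap itself was not measured. PSME1 held 38.5% of the PSME1 and PSME2 counts in SKOV3 KO (36.0 to 41.0) and 44.8% in SKOV3 mock (42.6 to 47.0), and 56.7% in OVCAR3 KO (54.8 to 58.5) and 62.0% in OVCAR3 mock (60.1 to 63.9). The share of PSME1 was lower in the knockout library of each line, with intervals that did not overlap within a line. These intervals cover counting error only, and how often other gene pairs separate in this way was not computed. Single-gene intervals clear of 0 were common among the 43 members, with 25 above 0 and 12 below in OVCAR3, and 8 and 13 in SKOV3. Whether the knockout changed this share was not tested.

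Genes that use the immunoproteasome's peptides lay on both sides of 0 in OVCAR3. Of 9 measured antigen supply genes, 1 was past 2-fold higher in OVCAR3 KO and 3 lower, against 37.8% of all genes past 2-fold in either direction. ERAP2, a peptide trimmer, had 4.95 CPM in OVCAR3 KO and 1.16 CPM in OVCAR3 mock (1.98), and B2M, the light chain of MHC class I, had 83.7 and 43.0 CPM (0.96). HLA-C had 18.1 CPM in OVCAR3 KO and 48.1 CPM in OVCAR3 mock, past 2-fold lower. In SKOV3 none of 10 measured genes was past 2-fold; TAP1, a peptide transporter gene that stands in 8 rows, was listed at 0 in all libraries, and HLA-C and B2M stand in several rows too, so their levels are uncertain.

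Between the line labels, most proteasome genes were lower in the OVCAR3 libraries. In OVCAR3 mock over SKOV3 mock 39 of 43 ratios were below 0, with a median of -0.48, against a median of 0.008 over all genes, and all 16 measured base and lid subunits were below 0. By size, 1 member was past 2-fold higher and 4 lower, where 9.51% of 13721 genes were higher and 5.54% lower, 15.0% in all. Members took 0.517% of all counts in OVCAR3 KO and 0.793% in SKOV3 KO, and 0.556% in OVCAR3 mock and 0.784% in SKOV3 mock. With the GC and length trend removed the median was -0.33.

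The subunits past 2-fold came from different parts of the particle. PSME1 had 94.8 CPM in OVCAR3 mock and 39.0 CPM in SKOV3 mock (1.28, 1.16 to 1.40). PSMB10 had 11.6 CPM in OVCAR3 mock and 29.2 CPM in SKOV3 mock (-1.33, -1.58 to -1.10), PSMC1, a base ATPase, had 95.4 and 218 CPM (-1.19, -1.27 to -1.11), and PSMD5, a base chaperone, had 55.6 and 115 CPM (-1.05, -1.16 to -0.94). PSMC3IP had 19.7 CPM in OVCAR3 mock and 41.7 CPM in SKOV3 mock (-1.08). PSMC1 has a close copy, PSMC1P1, with between 4.38% and 6.11% of the summed counts of both, so reads may be split between them. PSME1 and PSMB10, both induced by interferon, thus lay past 2-fold on opposite sides.

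In OVCAR3 KO over SKOV3 KO, 1 member was past 2-fold higher and 7 lower, where 25.3% of 15616 genes were higher and 14.5% lower, 39.7% in all. PSME1 was again the highest, at 103 CPM in OVCAR3 KO and 35.9 CPM in SKOV3 KO (1.52, 1.39 to 1.67). The lowest were PSMD2 (115 CPM in OVCAR3 KO, 523 CPM in SKOV3 KO, -2.19), PSMD3 (64.5 and 220 CPM, -1.76) and PSMF1 (34.3 and 111 CPM, -1.70), followed by PSMD8 (-1.47), PSMD11 (-1.41), PSMC3 (-1.23) and PSME3 (-1.06). This comparison shares the OVCAR3 KO library with that of OVCAR3 KO and OVCAR3 mock, so the same low values enter both. The core had a median of -0.09 and the base and lid a median of -0.68.

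**Figure D5:**
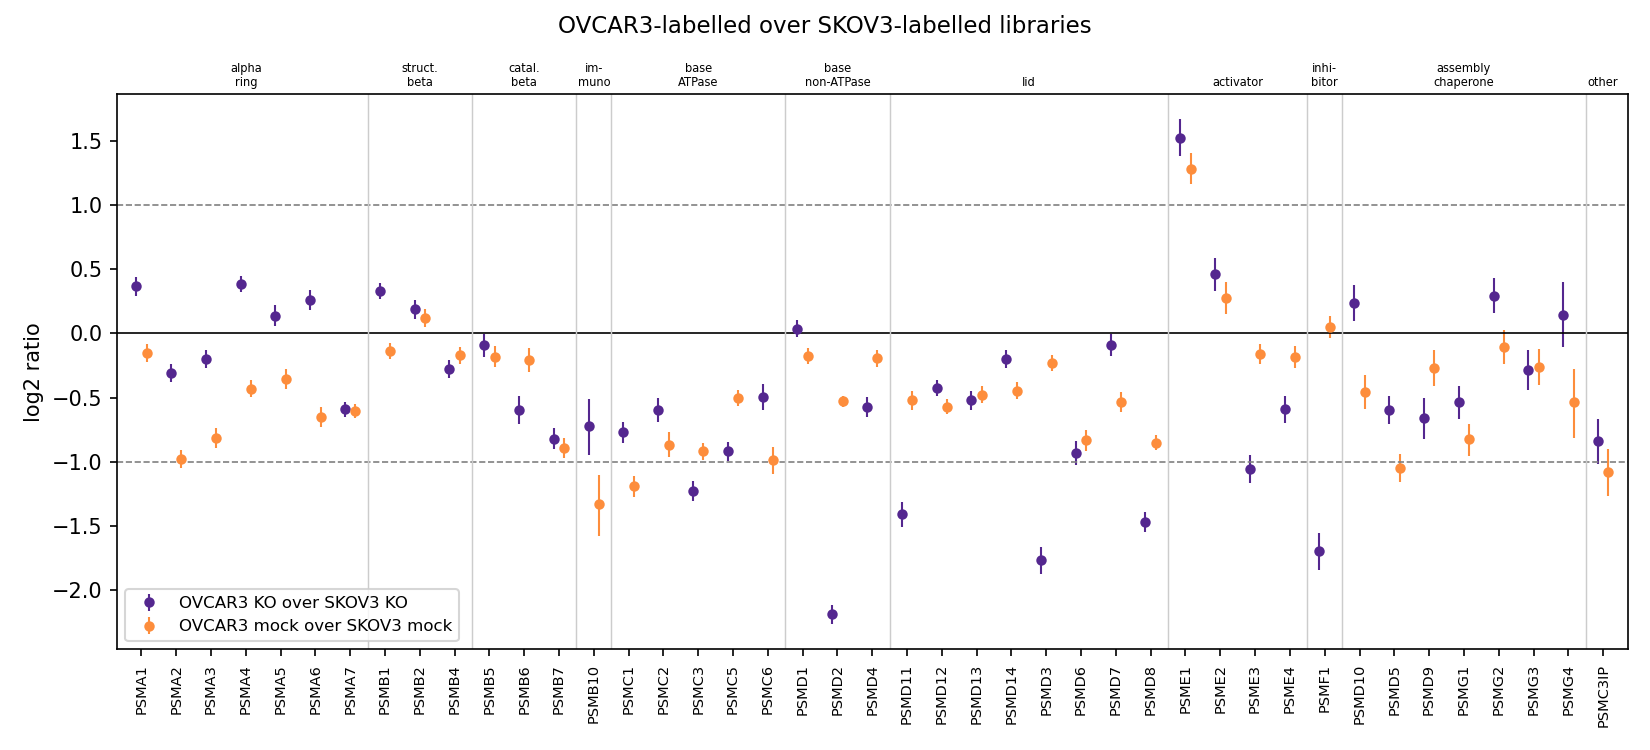
log2 ratio of OVCAR3-labelled over SKOV3-labelled libraries for each measured member, knockout over knockout in purple and mock over mock in orange, with exact 95% counting intervals; dashed lines mark 2-fold. PSME1 is the highest in both, and PSMD2, PSMD3 and PSMF1 are far lower between the knockouts than between the mocks.

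The knockout has no replicate other than the second cell line. With the line as a term, a quasi-likelihood test in edgeR over all 4 libraries called 0 of 43 members at a Benjamini-Hochberg adjusted p under 0.05 (background 0.0% of 13670 genes), and DESeq2 and limma-voom also called 0. At an unadjusted p under 0.05 these tools called 0 members, where they called 1.02%, 3.01% and 2.24% of genes. PSMD2, PSMF1, PSMD3 and PSMA4 had the smallest p-values of the members, all 0.956 after adjustment in edgeR. PSMD2 had a fitted log2 ratio of -0.92; it was lower in knockout in both lines, by 0.09 in SKOV3 and by 1.75 in OVCAR3 on the log2 scale. Only 1 degree of freedom per gene was left for the spread, which contains the difference of the knockout effect between the lines. Without the SKOV3 KO library, and with no term for the line, 1 member of 43, PSMD2, was called in edgeR, where 4.54% of genes were; the lone knockout library is there assumed to vary like the pair of mocks.

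The line labels were compared in the same edgeR fit, with a mock and a knockout library on each side. It called 0 of 43 members after adjustment, where 0.0366% of genes were called; DESeq2 and limma-voom also called 0 members, where they called 1.36% and 0.0146% of genes. At an unadjusted p under 0.05 edgeR called 7 members, 1 higher and 6 lower in OVCAR3, where 12.1% of genes were called, and DESeq2 called 11 (12.3% of genes) and limma-voom 9 (13.1%). PSME1 was the higher member in edgeR (adjusted p = 0.261), and its level was higher in both OVCAR3 libraries than in both SKOV3 libraries. The lower ones were PSMD2 (-1.36), PSMD8 (-1.16), PSMC3 (-1.07), PSMB10 (-1.03), PSMC1 (-0.98) and PSMC3IP (-0.96), with adjusted p-values of 0.364 to 0.402 in edgeR. With no term for the genotype, the fit without OVCAR3 KO called 27 members, where 46.7% of genes were called, and that without OVCAR3 mock 31, where 64.0% were, the lone OVCAR3 library being assumed to vary like the SKOV3 pair; without SKOV3 KO or SKOV3 mock it called 0. The labels do not say that the libraries of a line came from separate cultures beyond mock and knockout, so these p-values measure the spread among 4 libraries.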

How the data were processed

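Per the labels' protocols, Trizol was used for total RNA and the strand-keeping NEBNext Ultra II Directional kit for libraries. Per the submitters' processing notes, TopHat and GRCh38 were used; of the counter, the annotation and the strand setting, each is not given in the sources used here. Each of the 4 deposited tables holds whole, unnormalised read counts for 58173 rows named by gene symbol, which were summed where a symbol had several rows. No per-sample column was left unused, and groups came from the sample titles.

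Counts were scaled with TMM (edgeR 4.0.16, R 4.3.3), with factors of 1.04, 1.02, 0.931 and 1.01 for SKOV3 KO, SKOV3 mock, OVCAR3 KO and OVCAR3 mock. Within pairs of libraries a member was counted by size, when its log2 ratio (prior count 2) was 1 or more from 0 and it had at least 1 CPM in 1 of the 2 libraries. Intervals are exact Clopper-Pearson intervals at 95% (scipy 1.17.1); without molecular identifiers, they and the zero limits (3 counts) cover counting error only. The edgeR fit used genes with at least 1 CPM in at least 2 libraries, with line and genotype as terms. DESeq2 1.42.0, limma 3.58.1, other scalings, filters, prior counts and folds were alternatives, as was taking off a natural spline (5 degrees of freedom) in GC content and in length of the middle-length principal GENCODE 29 transcript. The fit and the intervals were tested on simulated counts. Promoters are from RefSeq (GRCh38.p14).

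Members, lists, tests and alternatives were chosen with earlier results of these data known. Named genes were the cutting, immunoproteasome, activator, inhibitor, tissue-restricted and unrelated members, the highest and lowest of each subcomplex within each line, every member past 2-fold, and the 2 largest ratios in each direction of a pathway list, of which 1 is not reported here. PSMA3, PSMA6, PSMD8, PSMD11, PSMD14, MAFG, MAFK, DDI2, CDKN2A, ERBB2, MUC16, PAX8, WT1 and KRT19 were named in addition, after their values were seen. Levels set between genes are per kilobase of transcript.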

Additional observations from a re-analysis of the deposited data

Results flagged for a closer look

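For 7 of 43 members the knockout ratio had opposite signs in the lines, with both counting intervals clear of 0. The share of all genes that meet this rule was not computed, so the 7 have no background here. Intervals clear of 0 were common: among the 43 members 25 lay above 0 and 12 below in OVCAR3, and 8 and 13 in SKOV3. The difference between the lines was not tested, since each ratio rests on 1 library per group. For each of the 7, the first value below is the log2 ratio in OVCAR3 and the second that in SKOV3. Higher in OVCAR3 KO and lower in SKOV3 KO were the alpha subunits PSMA1 (0.42 and -0.10) and PSMA6 (0.80 and -0.11). The same held for the lid's deubiquitinase pair PSMD7 (0.31 and -0.14) and PSMD14 (0.15 and -0.10). It also held for the base chaperones PSMD5 (0.36 and -0.09) and PSMD10 (0.42 and -0.27). PSMD4, the ubiquitin receptor of the base, was the reverse, with -0.29 in OVCAR3 and 0.09 in SKOV3. With the GC and length trend removed, the OVCAR3 ratios of PSMD10 (-0.21) and PSMD14 (-0.11) were below 0, as in SKOV3. Those of PSMD5 (-0.01), PSMD7 (0.01) and PSMA1 (0.05) were close to 0. The corrected median over coding genes was -0.13 in the OVCAR3 pair, and of these members only PSMD10 lay below it.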

How the results depend on the processing

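Alternatives to the size rule were run on all 4 pairs. In OVCAR3 KO over OVCAR3 mock the count of higher members, 1 as reported, was 0 with total counts only, 0 at 3-fold, 0 with the GC and length trend removed and 7 at 1.5-fold; that of lower members, 4 as reported, was 2 at 3-fold. In OVCAR3 mock over SKOV3 mock 1 higher and 4 lower members became 0 and 0 at 3-fold, and the lower ones became 15 at 1.5-fold and 2 with the trend removed. In OVCAR3 KO over SKOV3 KO 1 higher and 7 lower members became 0 and 3 at 3-fold, and the lower ones 19 at 1.5-fold. DESeq2 size factors, mitochondrial rows left out, other filters and prior counts moved no count of members by more than 1.5 times. Total counts alone shift the median of all genes by -0.12 in the OVCAR3 pair and -0.17 between the knockouts. The immunoproteasome share, 6.17%, 5.71%, 5.35% and 3.25% in SKOV3 KO, SKOV3 mock, OVCAR3 KO and OVCAR3 mock, was 5.22%, 4.81%, 4.65% and 2.75% per transcript length, and 12.5%, 11.3%, 13.2% and 8.54% for PSMB10 with PSMB7 alone; PSMB8 with PSMB5 and PSMB9 with PSMB6 gave no value. The reported fit pairs knockout with mock within a line, and lines within a genotype; with the other factor left out, so with no replicate block, 0 members were called in both tests. Fits added after seeing the data left out each library in turn. Members called for knockout over mock ranged from 0 to 1 (PSMD2, without SKOV3 KO, where 620 of 13670 genes were called). For OVCAR3 over SKOV3 they ranged from 0 to 31: 27 without OVCAR3 KO (6388 genes called), 31 without OVCAR3 mock (8742 genes called) and 0 without either SKOV3 library, where the lone library is assumed to vary like the pair of the other group. The background over coding genes with at least 20 CPM was also added after seeing the data. Depth limits PSMG4 and PSMB10 most, with 174 and 190 counts in OVCAR3 mock.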
